A study of Mus musculus with 6 samples.

Results

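The peroxiredoxins and their partner antioxidant enzymes were followed in LT/ST-HSCs, the long- and short-term hematopoietic stem cells of bone marrow. The group was set by gene symbol and holds 10 genes, *Prdx1* to *Prdx6*, *Txn1*, *Gpx1*, *Sod1* and *Cat*, of 26216 gene names in all. All 10 were found, and all 10 lay among the 13108 names in the upper 50% by mean signal, which were tested. Messenger RNA was sequenced from 6 samples, 3 of *Ltbr*-/- cells (CD45.2, labelled Ltbr KO) and 3 of wild-type Ly5.1 cells (CD45.1, labelled Ly5.1 WT). Bone marrow LSKs (Lin- Sca1+ c-Kit+ cells) of both donors had been given together to lethally irradiated Ly5.1/Ly5.2 mice, and Annexin-V- stem cells were sorted at week 6. The donors were 10 to 13 weeks old for *Ltbr*-/- and 7 to 13 weeks for Ly5.1, so that donor strain, age and the loss of *Ltbr* cannot be told apart in full. The *Ltbr*-/- donors carry a germline deletion in all cells, and cells of 6 chimeras were pooled to the 3 replicates of each genotype.

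Superoxide, the first oxidant that leaks from respiration, is turned into hydrogen peroxide by superoxide dismutases such as *Sod1*. Hydrogen peroxide is then removed by catalase (*Cat*), by the selenoenzyme *Gpx1* with glutathione, and by the peroxiredoxins. The peroxiredoxins reduce the peroxide with a reactive cysteine, and several, such as *Prdx1* and *Prdx2*, are themselves reset by thioredoxin (*Txn1*). Stem cells are known to lose quiescence when oxidants build up.

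The catalytic codon shows how the family is built, and is given here for the peroxiredoxins, *Txn1* and *Gpx1*. Each stretch is 27 bases of coding sequence from GENCODE M21 (GRCm38), written 5′ to 3′ on the coding strand, with the codon of the reactive residue in capitals. In the peroxiredoxins and *Txn1* it is a cysteine codon. In *Gpx1* it is TGA, otherwise a stop codon, which is read there as selenocysteine.
Prdx1: tttacttttgtgTGTcccacggagatc
Prdx2: ttcacttttgttTGCcccacggagatc
Prdx3: ttcacatttgtgTGTcctacagaaatt
Prdx4: ttcacctttgtgTGTccaactgaaatc
Prdx5: tttacacctggcTGTtctaagacccac
Prdx6: tttaccccagtgTGCaccacagaactt
Txn1: tctgctacgtggTGTggaccttgcaaa
Gpx1: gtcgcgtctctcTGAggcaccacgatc
The capitals mark codon 52 in *Prdx1*, 51 in *Prdx2*, 109 in *Prdx3*, 127 in *Prdx4*, 96 in *Prdx5*, 47 in *Prdx6*, 32 in *Txn1* and 47 in *Gpx1*, counted from the start codon. The stretches lie in exon 3 of *Prdx1* on the + strand (chr4:116691811-116691837), exon 3 of *Prdx2* on the + strand (chr8:84970471-84970497), exon 2 of *Prdx6* on the - strand (chr1:161247356-161247382), exon 2 of *Txn1* on the - strand (chr4:57951818-57951844) and exon 1 of *Gpx1* on the + strand (chr9:108339439-108339465). In *Prdx3* (chr19:60870115-60871421), *Prdx4* (chrX:155332448-155334839) and *Prdx5* (chr19:6907668-6908002), all on the - strand, an intron divides the stretch in the genome. The middle base of their capitals lies in exon 4, exon 3 and exon 2, respectively.

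All values below are the deposited signal, which was taken, from the values, as 2 to the power of the authors' regularized log. It is scaled for each sample and is not divided by gene length. *Ltbr* itself had signals of 24.2, 26.4 and 23.1 in the *Ltbr*-/- samples and of 564, 549 and 522 in the Ly5.1 samples, as the labels require. Of 12 stem cell markers listed, *Kit*, *Procr* and *Mecom* had signals from 549 for *Procr* to 6103 for *Kit* in all 6 samples. *Hoxb5* had signals of only 31 to 34. *Ly6a* was lower in *Ltbr*-/- cells (log2 fold change −0.39, limma, adjusted p = 0.0016), and 2 of the 12 had a log2 fold change above 0. The neutrophil marker *S100a9* stood above *Kit* in every sample, at 9949 to 14909.

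Among the antioxidant enzyme genes, *Prdx5* alone passed both thresholds (adjusted p below 0.05 and at least a 1.5-fold difference) and was 1.57-fold higher in *Ltbr*-/- than in Ly5.1 LT/ST-HSCs. *Txn1* was 1.44-fold and *Sod1* 1.43-fold higher with an adjusted p under 0.05, below the fold threshold. The other 7 genes did not pass the test. Across all tested names, 2.78% passed both thresholds in either direction, 2.72% were called higher and 10.6% were higher by the adjusted p alone, against 1 and 3 of the 10 genes. The median log2 fold change (*Ltbr*-/- minus Ly5.1) of the 10 genes was 0.18, and that of all 13108 tested names was −0.01. The log2 fold change was above 0 in 9 of the 10 genes and in 46.4% of all tested names. These directions hold on the deposited scale, and all 9 turned negative when each sample was centred on the ribosomal protein genes, which moves the median of all tested names to −0.89. Relative to that median, *Prdx5* stood at 0.67, *Txn1* at 0.54 and *Sod1* at 0.53. Tests were made with limma and Benjamini-Hochberg adjustment over all tested names. In bulk samples, a change in the share of a cell type and a change in RNA per cell cannot be told apart.

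**Figure D1:**
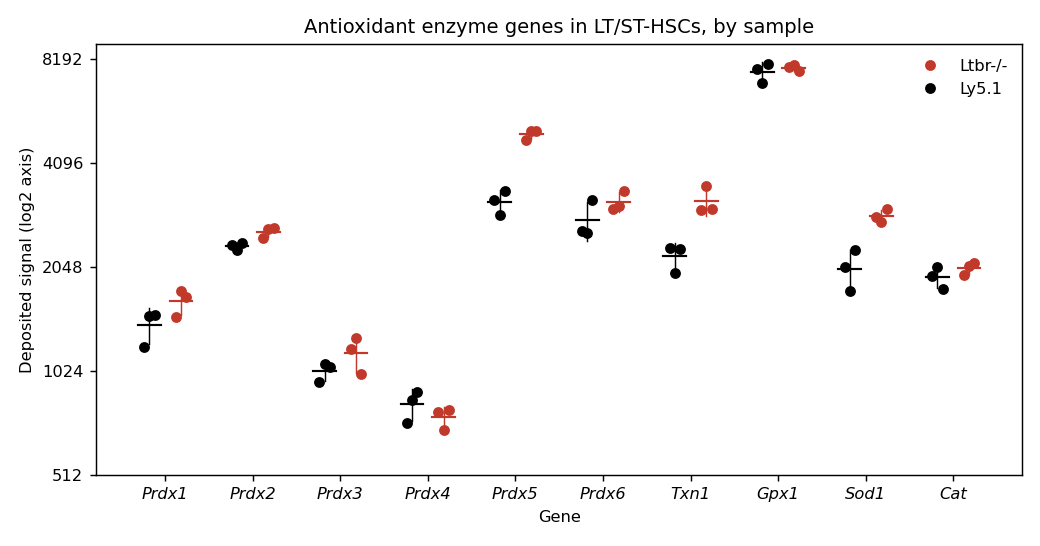
Deposited signal (vertical log2 axis) of each of the 10 genes in the 3 Ly5.1 samples (black) and the 3 *Ltbr*-/- samples (red). Points are samples, horizontal lines are means and vertical lines are 1 SD. On this scale the genotypes do not overlap in *Prdx2*, *Prdx5*, *Txn1* and *Sod1*; centred on the ribosomal protein genes, these 4 genes were lower in *Ltbr*-/- cells.

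*Prdx1* and *Prdx2*, peroxiredoxins of the cytosol, are abundant in blood-forming cells and in red cells. *Prdx1* had signals of 1465, 1740 and 1682 in *Ltbr*-/- and of 1199, 1480 and 1492 in Ly5.1 cells. The groups overlapped, since the lowest *Ltbr*-/- sample lay below the highest Ly5.1 samples. The log2 fold change was 0.23 (standard error 0.09, limma, adjusted p = 0.0892). *Prdx2* had signals of 2487, 2633 and 2651 in *Ltbr*-/- and of 2367, 2303 and 2407 in Ly5.1 cells. The groups did not overlap, but the difference of 0.13 on the log2 scale did not pass the test (standard error 0.08, limma, adjusted p = 0.271), and its 95% interval ran from −0.02 to 0.29. Of the 76-base windows of its transcript, 17.2% also occur in *Junb*, *Rnaseh2a* or the pseudogene *Tdpx-ps1*, and *Junb* and *Rnaseh2a* overlap it on the opposite strand. They differed in sign, with log2 fold changes of −0.17 for *Junb* (limma, adjusted p = 0.161) and 0.33 for *Rnaseh2a* (limma, adjusted p = 0.00831).

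*Prdx3* is the peroxiredoxin of the mitochondrial matrix and *Prdx4* that of the endoplasmic reticulum. *Prdx3* had signals of 1186, 1279 and 1000 in *Ltbr*-/- and of 951, 1070 and 1048 in Ly5.1 cells. Its *Ltbr*-/- replicate 3 fell inside the Ly5.1 range (log2 fold change 0.17, standard error 0.09, limma, adjusted p = 0.240). *Prdx4*, on the X chromosome, had signals of 777, 689 and 788 in *Ltbr*-/- and of 724, 846 and 891 in Ly5.1 cells. It had the lowest fold change of the 10 genes and was the only gene below 0, at −0.12 (standard error 0.09, limma, adjusted p = 0.428), with overlapping groups.

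*Prdx5* is found in mitochondria, peroxisomes and the cytosol. Its signals were 4797, 5086 and 5068 in *Ltbr*-/- cells, with a mean of 4983 ± 162 (SD, n = 3). They were 3199, 2908 and 3402 in Ly5.1 cells, with a mean of 3170 ± 249 (SD, n = 3). Every *Ltbr*-/- sample lay above every Ly5.1 sample, and the gap between the groups was larger than the range within either. The log2 fold change was 0.66 (standard error 0.08, limma, adjusted p = 1.48e-08). The exact two-sided permutation test of 3 against 3 samples gave p = 0.1, the smallest value it can give. The call was kept when any single sample was left out, with log2 fold changes from 0.59 to 0.71, and was lost on the fold threshold after quantile normalization, at 0.53 (limma, adjusted p = 1.17e-06).

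The exons of *Prdx5* (chromosome 19, 6906697 to 6910106, GRCm38.p6) share 409 of 2139 bases with *Trmt112* on the opposite strand, and 28.1% of the 76-base windows of its transcript also occur in *Trmt112* transcripts. The library kit marks strand, but the strand setting of the counting is not given in the sources used here. *Trmt112*, which encodes a partner of methyltransferases, had signals of 300, 291 and 304 in *Ltbr*-/- and of 250, 252 and 245 in Ly5.1 cells (log2 fold change 0.26, limma, adjusted p = 0.0462). The signal of *Trmt112* was far lower than that of *Prdx5*, with neither divided by length. The log2 ratio of *Prdx5* to *Trmt112* lay between 4.0 and 4.13 in *Ltbr*-/- against 3.53 to 3.80 in Ly5.1 cells. How far reads from the shared bases enter either signal was not tested.

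*Prdx6*, which has a single reactive cysteine and also acts as a phospholipase, had signals of 3016, 3080 and 3399 in *Ltbr*-/- and of 2601, 2576 and 3213 in Ly5.1 cells. The groups overlapped through Ly5.1 replicate 3, and the log2 fold change was 0.18 (standard error 0.08, limma, adjusted p = 0.150). Without that sample the log2 fold change of *Prdx6* was 0.29 (limma, adjusted p = 0.0117) and that of *Prdx1* 0.29 (limma, adjusted p = 0.0405), both still below the fold threshold. *Prdx6* was 0.13 without Ly5.1 replicate 2 (limma, adjusted p = 0.418), and *Prdx1* was 0.13 without Ly5.1 replicate 1 (limma, adjusted p = 0.445). *Prdx6* lies on chromosome 1, 23.1 Mb beyond *Ptprc*, the gene at which the donors differ by the CD45 allele. *Ptprc* itself had a log2 fold change of −0.19 (limma, adjusted p = 0.0878).

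*Txn1* encodes thioredoxin, which resets oxidized peroxiredoxins such as *Prdx1* and *Prdx2*. Its signals were 2996, 3530 and 3024 in *Ltbr*-/- cells (mean 3183 ± 301, SD, n = 3) and 2329, 1964 and 2318 in Ly5.1 cells (mean 2204 ± 207, SD, n = 3). The second *Ltbr*-/- sample was the highest and the second Ly5.1 sample the lowest, and the groups did not overlap. The log2 fold change was 0.53 (standard error 0.09, limma, adjusted p = 9.54e-06). No 76-base window of its transcript occurs in another gene. In a linear model without moderation the adjusted p was 0.10 for *Txn1*, 0.119 for *Sod1* and 0.0312 for *Prdx5*.

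*Sod1*, the copper-zinc superoxide dismutase of the cytosol, had signals of 2860, 2766 and 3015 in *Ltbr*-/- (mean 2880 ± 125, SD, n = 3) and of 2049, 1746 and 2290 in Ly5.1 cells (mean 2028 ± 272, SD, n = 3). The groups did not overlap, and the Ly5.1 samples were spread more widely. The log2 fold change was 0.51 (standard error 0.09, limma, adjusted p = 2.48e-05). With each sample left out in turn it ranged from 0.41 to 0.61 (limma, adjusted p at most 0.00104). Among these fits it passed both thresholds only without Ly5.1 replicate 3, at 0.61. A pseudogene, *Gm8566*, holds 11.8% of the 76-base windows of the *Sod1* transcript, so that a part of its reads can be shared.

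*Gpx1*, the glutathione peroxidase of cytosol and mitochondria, had the highest signal of the group. It was 7763, 7886 and 7591 in *Ltbr*-/- and 7672, 7004 and 7954 in Ly5.1 cells, with overlapping groups. The log2 fold change was 0.04, with a 95% interval from −0.10 to 0.18 (limma, adjusted p = 0.756), and its sign turned without Ly5.1 replicate 2. After quantile normalization *Gpx1* was lower in *Ltbr*-/- cells, at −0.24 (limma, adjusted p = 0.00632). *Cat*, the catalase of peroxisomes, had signals of 1947, 2064 and 2100 in *Ltbr*-/- and of 1932, 2047 and 1773 in Ly5.1 cells. The groups overlapped, and the log2 fold change was 0.09 with a 95% interval from −0.08 to 0.26 (limma, adjusted p = 0.533). For *Gpx1* and *Cat*, as for *Prdx1*, *Prdx2*, *Prdx3*, *Prdx4* and *Prdx6*, the 95% interval excludes a 1.5-fold difference on the deposited scale.

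**Figure D2:**
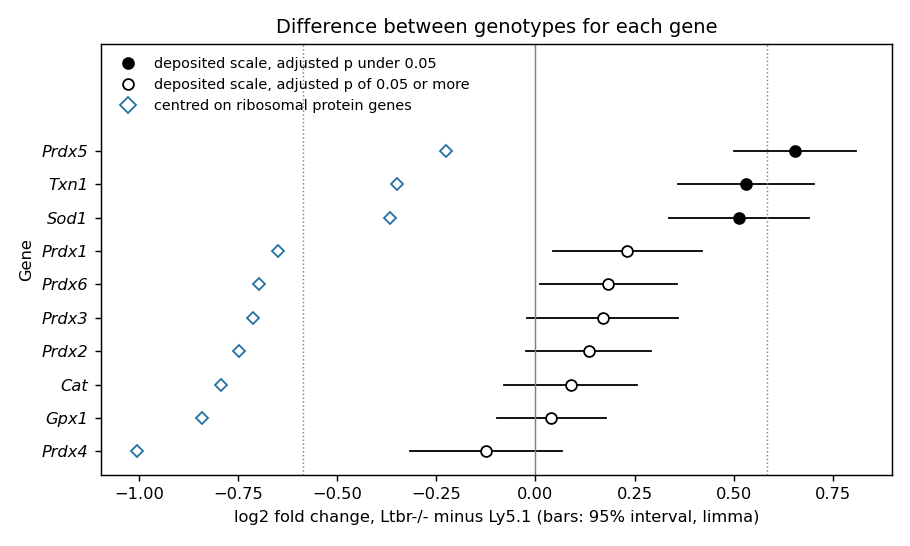
log2 fold change (*Ltbr*-/- minus Ly5.1, horizontal axis) of the 10 genes with its 95% interval from limma, filled where the adjusted p was under 0.05. Dotted lines mark a fold of 1.5. *Prdx5*, *Txn1* and *Sod1* lead at 0.66, 0.53 and 0.51 on the deposited scale, and blue diamonds show that all 10 genes were below 0 when centred on the ribosomal protein genes.

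The genotypes did not overlap in 4 of the 10 genes, *Prdx2*, *Prdx5*, *Txn1* and *Sod1*, all 4 higher in *Ltbr*-/- cells on the deposited scale and lower when centred on the ribosomal protein genes. Of all tested names, 30.4% did not overlap in either direction and 17.0% did not overlap and were higher. Ly5.1 replicate 3 held the highest Ly5.1 value in 7 of the 10 genes, and Ly5.1 replicate 2 the lowest in 6. The mean deviation of the 10 genes from their own means was 0.08, 0.15 and 0.13 on the log2 scale in the *Ltbr*-/- samples, and −0.16, −0.16 and −0.04 in the Ly5.1 samples. The median log2 signal of the 81 tested ribosomal protein genes had the same order of groups, with 13.28, 13.32 and 13.43 in the *Ltbr*-/- and 12.41, 12.36 and 12.63 in the Ly5.1 samples, and Ly5.1 replicate 3 was again the highest of its group. Of these 81 genes, 73 were called higher. Their part in the differences of the antioxidant enzyme genes was not tested.

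Ratios within a sample do not depend on a factor that scales the whole sample. The pairs given here were chosen after their values were seen and were not tested. The log2 ratio of *Prdx5* to the median of the other 5 peroxiredoxins was 1.71, 1.55 and 1.59 in *Ltbr*-/- against 1.42, 0.97 and 1.19 in Ly5.1 cells. *Prdx5* thus stood higher against its own family in every *Ltbr*-/- sample. The log2 ratio of *Txn1* to *Txnrd1*, the reductase that feeds it, was 1.30, 1.27 and 1.10 in *Ltbr*-/- against 0.68, 0.40 and 0.88 in Ly5.1 cells. Against *Txnip*, the inhibitor of thioredoxin, it was −0.45, −0.17 and −0.32 compared with −0.89, −1.03 and −0.81. The groups were thus apart for *Txn1* against both its reductase and its inhibitor. For *Sod1* over *Gpx1*, the log2 ratio was −1.44, −1.51 and −1.33 in *Ltbr*-/- against −1.90, −2.0 and −1.80 in Ly5.1 cells. Against *Cat*, the log2 ratio of *Sod1* was 0.55, 0.42 and 0.52 compared with 0.08, −0.23 and 0.37. *Sod1* thus stood higher against *Gpx1* and *Cat*, while its log2 fold change was below that of *Prdx5*, which also removes peroxide. Against *Sod2*, the mitochondrial superoxide dismutase, the ratio was 1.59, 1.57 and 1.66 compared with 1.32, 1.14 and 1.55, with the groups separated by a narrow gap.

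**Figure D3:**
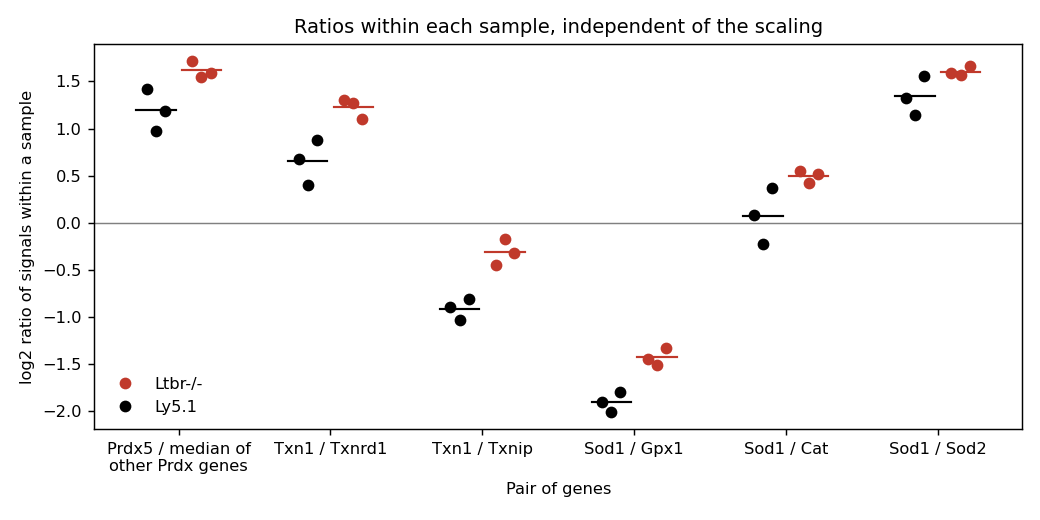
log2 ratio of the signals of 2 genes within each sample (vertical axis) for 6 pairs chosen after their values were seen, in Ly5.1 (black) and *Ltbr*-/- (red) samples, with lines at the means. The *Ltbr*-/- samples lie above all Ly5.1 samples in each pair, from 1.10 to 1.30 against 0.40 to 0.88 for *Txn1* over *Txnrd1*.

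To compare levels between genes, the signal was divided by the length of a coding transcript. In both genotypes *Gpx1* was the highest, at 7226 ± 138 per kilobase (SD, n = 3) in *Ltbr*-/- and 7037 ± 455 in Ly5.1 cells. It was followed in both by *Sod1*, *Prdx5*, *Txn1*, *Prdx2* and *Prdx6*, with no overlap between the sample ranges of neighbours. In Ly5.1 cells these stood at 3164, 2512, 2097, 1464 and 1172 per kilobase. The last 4 genes, *Prdx4*, *Cat*, *Prdx3* and *Prdx1*, stood at 829, 734, 692 and 606 per kilobase in Ly5.1 cells, and each overlapped its neighbour in this order. In *Ltbr*-/- cells the same 4 genes again overlapped, between 710 and 782 per kilobase. The order depends on the transcript, as *Prdx1* has 5 annotated coding transcripts from 611 to 2294 bases. With the shortest transcript of each gene, *Prdx1* stood at 2276, *Prdx5* at 6327 and *Gpx1* at 11552 per kilobase in Ly5.1 cells, so that *Prdx5* moved above *Sod1* while *Gpx1* stayed the highest. *Txn1*, at 2097 per kilobase, then stood below *Prdx6* (2916), *Prdx2* (2860), *Cat* (2461) and *Prdx1*, so that most of the order rests on the transcript chosen.

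**Figure D4:**
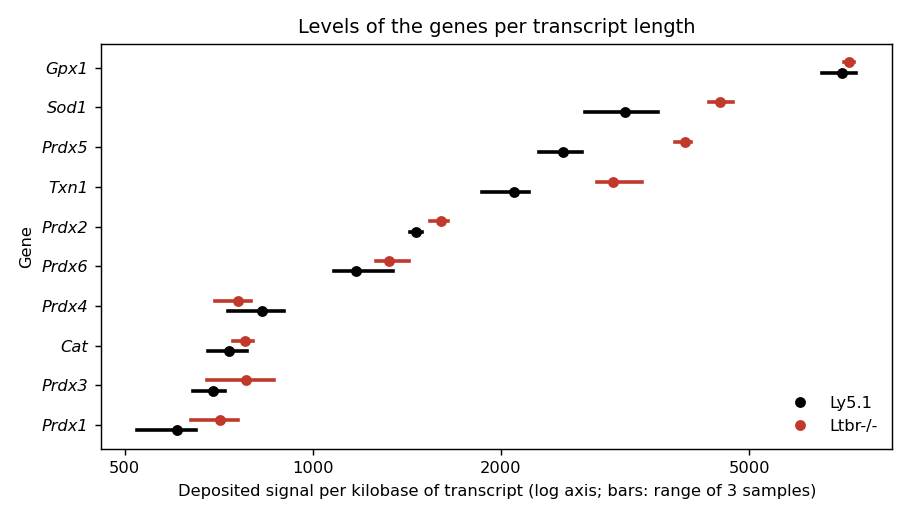
Deposited signal per kilobase of transcript (horizontal log axis) of the 10 genes in Ly5.1 (black) and *Ltbr*-/- (red) samples. Points are means and bars the range of 3 samples. *Gpx1* leads at 7037 in Ly5.1 cells, and the ranges of *Prdx4*, *Cat*, *Prdx3* and *Prdx1* overlap.

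Promoters were searched because antioxidant genes are known targets of Nrf2 (*Nfe2l2*), which binds antioxidant response elements. The 250 bases before the transcript start were taken from RefSeq (GRCm38.p6), and 9 of the 10 genes were matched, all but *Prdx6*. The core of the element, TGACNNNGC on either strand, was present in 2 of these 9, *Prdx1* and *Sod1*, against 10.2% of 32851 promoters. The AP-1 site TGACTCA occurred in *Prdx1* alone, at 2 places, against 4.46% of promoters, and its copy at −131 overlaps the element core at −133. The forkhead site GTAAACA occurred in 0 of the 9 and in 3.17% of promoters. The promoters of the 3 genes with an adjusted p under 0.05 and that of *Prdx1* are shown, 5′ to 3′ on the strand of the gene, with the element core in capitals.
Sod1: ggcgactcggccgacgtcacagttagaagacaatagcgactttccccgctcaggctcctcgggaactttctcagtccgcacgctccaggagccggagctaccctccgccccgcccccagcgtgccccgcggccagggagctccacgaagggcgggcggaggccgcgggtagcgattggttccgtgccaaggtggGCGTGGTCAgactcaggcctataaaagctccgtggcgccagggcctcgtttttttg
Prdx5: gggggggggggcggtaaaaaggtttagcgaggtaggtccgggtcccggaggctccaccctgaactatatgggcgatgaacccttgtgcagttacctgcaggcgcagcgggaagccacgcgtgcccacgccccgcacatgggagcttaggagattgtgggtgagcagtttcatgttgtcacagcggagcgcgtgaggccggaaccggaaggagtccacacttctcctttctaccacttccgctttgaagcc
Txn1: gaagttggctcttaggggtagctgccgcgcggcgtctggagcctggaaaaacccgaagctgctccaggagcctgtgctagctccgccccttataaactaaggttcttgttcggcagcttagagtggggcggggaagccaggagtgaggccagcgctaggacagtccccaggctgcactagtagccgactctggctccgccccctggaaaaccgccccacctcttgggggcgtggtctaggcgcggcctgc
Prdx1: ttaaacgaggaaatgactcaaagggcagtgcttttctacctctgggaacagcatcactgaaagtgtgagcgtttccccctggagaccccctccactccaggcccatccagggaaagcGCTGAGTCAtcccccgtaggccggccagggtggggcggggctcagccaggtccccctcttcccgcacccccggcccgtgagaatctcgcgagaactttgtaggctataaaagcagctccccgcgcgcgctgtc
They lie at chr16:90220512-90220761 (+ strand), chr19:6910107-6910356 (- strand), chr4:57956412-57956661 (- strand) and chr4:116685349-116685598 (+ strand). In *Sod1* the core lies at −56 from the start, on the opposite strand. Of the 2 genes with a core, *Sod1* had the log2 fold change of 0.51 given above and *Prdx1* one of 0.23, while *Prdx5* and *Txn1* hold no match to the 3 motifs in this window.

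The rest of the oxidant defence was read from 9 further lists, in which 109 of 127 genes were tested. Of these, 8 were called higher and 0 lower by limma on the deposited scale, and without the fold threshold 24 were higher and 6 lower. Across all tested names, 2.72% were called higher and 0.061% lower, and 10.6% and 4.18% by the adjusted p alone. The median log2 fold change over the 109 genes was 0.02, close to that of all tested names at −0.01. The 8 called genes were *Mgst2*, *Gstp1*, *Gstp2*, *Hmox1*, *Blvrb*, *Pgls*, *Taldo1* and *Cyba*. When centred on the ribosomal protein genes, *Mgst2* and *Hmox1* stayed above 0 and the other 6 fell below it.

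In the thioredoxin system, 0 of 12 tested genes were called by limma, and *Txndc17* alone had an adjusted p under 0.05. *Txndc17*, a small thioredoxin-like reductase, had signals of 521, 481 and 470 in *Ltbr*-/- and of 470, 364 and 371 in Ly5.1 cells (log2 fold change 0.297, limma, adjusted p = 0.0395), with the groups meeting at 470. Its adjusted p was above 0.05 when samples were left out in turn, except without Ly5.1 replicate 1, and reached 0.194. *Nxn*, nucleoredoxin, had a log2 fold change of 0.26 (limma, adjusted p = 0.0568). *Txn2* had a log2 fold change of 0.26 (limma, adjusted p = 0.0614), and 5 of the 12 genes lay above 0. The median of this list, which also holds reductases and *Txnip*, was −0.05. Its highest log2 fold change, that of *Txndc17*, was below the 0.53 of *Txn1*.

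In the glutathione system, 0 of 15 tested genes were called, with 3 higher and 1 lower by the adjusted p alone. *Gpx4*, which removes lipid peroxides, had signals of 1249, 1254 and 1289 in *Ltbr*-/- and of 934, 848 and 1006 in Ly5.1 cells. Its groups did not overlap (log2 fold change 0.45, limma, adjusted p = 0.000257), in contrast to the overlapping groups of *Gpx1*. *Hagh*, a hydrolase of the glyoxalase pathway, had a log2 fold change of 0.48 (limma, adjusted p = 0.000427).

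Among the 17 tested glutathione transferases, which join glutathione to reactive compounds, 3 were called higher and 0 lower, and 7 were higher and 2 lower by the adjusted p alone. *Mgst2*, a transferase of membranes that also makes leukotriene C, had signals of 2331, 2622 and 2512 in *Ltbr*-/- and of 1217, 1159 and 1179 in Ly5.1 cells. Each *Ltbr*-/- value was far above the Ly5.1 range (log2 fold change 1.07, limma, adjusted p = 6.61e-13). *Gstp1* had signals of 1891, 1919 and 1966 against 1173, 1068 and 1325 (log2 fold change 0.70, limma, adjusted p = 7.13e-08). *Gstp2*, its near-identical neighbour with which it can share reads, had a log2 fold change of 0.60 (limma, adjusted p = 7.53e-06).

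Of the other superoxide dismutase genes, *Sod2* had signals of 952, 934 and 953 in *Ltbr*-/- and of 818, 791 and 780 in Ly5.1 cells. *Ccs*, the copper chaperone that loads *Sod1*, had signals of 975, 922 and 1096 against 772, 870 and 838. Both were higher by the adjusted p alone, with log2 fold changes of 0.25 (limma, adjusted p = 0.0466) and 0.27 (limma, adjusted p = 0.0415). Neither group pair overlapped. The adjusted p of *Sod2* was above 0.05 when any single sample was left out, from 0.0676 to 0.129. That of *Ccs* ranged from 0.0344 to 0.245, the highest without *Ltbr*-/- replicate 3.

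Of 18 tested Nrf2 regulators and targets, 2 were called higher and 0 lower, 3 were higher and 0 lower by the adjusted p alone, and the median log2 fold change was 0.04. *Hmox1*, heme oxygenase, had signals of 2726, 2647 and 2740 in *Ltbr*-/- and of 1077, 1225 and 1355 in Ly5.1 cells. Its log2 fold change of 1.16 was the highest in these lists (limma, adjusted p = 2.80e-13). *Blvrb*, a biliverdin reductase, had signals of 1513, 1442 and 1585 against 909, 961 and 916 (log2 fold change 0.70, limma, adjusted p = 4.23e-08). Both of these genes take part in heme breakdown. *Sqstm1*, an autophagy receptor that binds Keap1, had signals of 3223, 3013 and 3049 against 2260, 1972 and 2051 (log2 fold change 0.57, limma, adjusted p = 9.55e-07), just under the fold threshold. *Nfe2l2* itself, *Keap1* and *Nqo1* did not pass the test, with log2 fold changes of 0.01, −0.20 and −0.07.

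NADPH supplies the electrons of both the thioredoxin and the glutathione systems. Of 15 tested genes, 2 were called higher and 0 lower, both enzymes of the pentose phosphate pathway, and 4 were higher and 0 lower by the adjusted p alone. *Pgls*, its lactonase, had signals of 4409, 4672 and 5107 in *Ltbr*-/- and of 2467, 2330 and 3185 in Ly5.1 cells (log2 fold change 0.84, limma, adjusted p = 1.80e-09). *Taldo1*, its transaldolase, had a log2 fold change of 0.65 (limma, adjusted p = 3.54e-08). *Me2*, a mitochondrial malic enzyme, and *Mthfd2*, an enzyme of mitochondrial folate metabolism, were the other two, with log2 fold changes of 0.32 (limma, adjusted p = 0.00493) and 0.29 (limma, adjusted p = 0.0256). The dehydrogenases *G6pdx* and *Pgd* did not pass the test, with log2 fold changes of −0.13 and −0.10. These 4 genes were chosen for mention after their values were seen.

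Of 9 tested genes of oxidant-producing enzymes, 1 was called higher and 0 lower, and by the adjusted p alone 3 were higher and 2 lower. *Cyba*, a membrane subunit of the phagocyte NADPH oxidase, had signals of 4212, 4267 and 4333 in *Ltbr*-/- and of 2847, 2365 and 2911 in Ly5.1 cells (log2 fold change 0.66, limma, adjusted p = 4.05e-08).

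Of the 14 tested selenoprotein and protein repair genes, 0 were called, and *Park7*, a redox-sensitive chaperone, alone had an adjusted p under 0.05 (log2 fold change 0.35, limma, adjusted p = 0.000836). *Selm*, a selenoprotein, had a log2 fold change of 0.26 (limma, adjusted p = 0.0866). Of 11 genes known to control or respond to oxidants in stem cells, 0 were called. The kinase gene *Atm* alone had an adjusted p under 0.05 and was lower, with signals of 1233, 1084 and 1070 in *Ltbr*-/- and of 1598, 1283 and 1278 in Ly5.1 cells (log2 fold change −0.29, limma, adjusted p = 0.0299). The adjusted p of *Atm* was 0.288 without moderation, and without Ly5.1 replicate 1 its log2 fold change was −0.18 (limma, adjusted p = 0.246). *Stk11*, a kinase of energy sensing, had a log2 fold change of 0.18 (limma, adjusted p = 0.161), and the FoxO genes lay between −0.06 and −0.03.

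**Figure D5:**
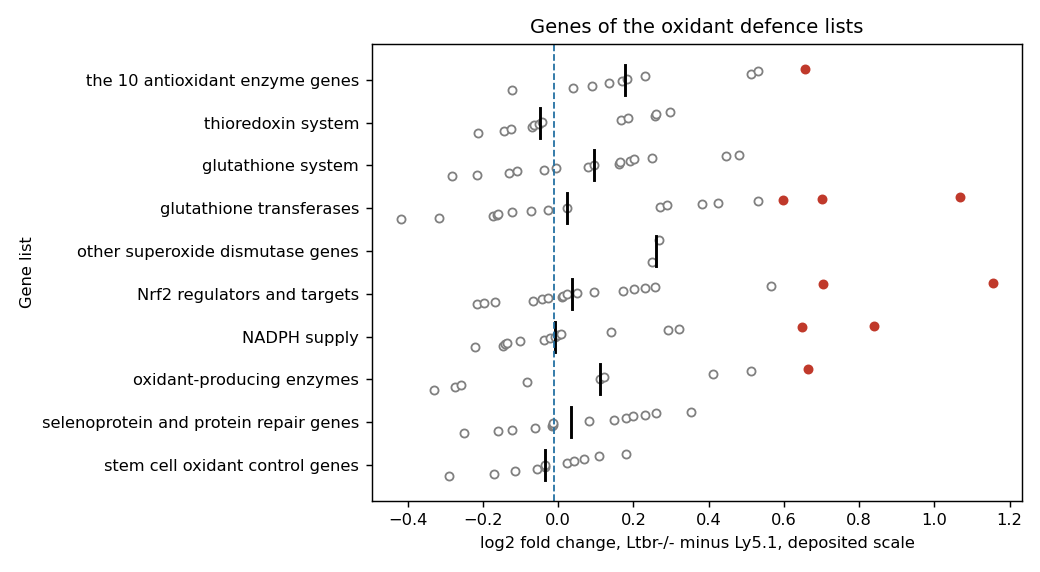
log2 fold change (*Ltbr*-/- minus Ly5.1, horizontal axis, deposited scale) of every tested gene in the 10 antioxidant enzyme genes and the 9 wider lists. Filled red points passed both thresholds, black bars are list medians and the dashed line is the median of all tested names at −0.01. The called points end at 1.16 for *Hmox1*; centred on the ribosomal protein genes, all called points but *Mgst2* and *Hmox1* were below 0.

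The 5 names whose pattern over the 6 samples was most like the mean of the 10 genes were *H2afj*, *Igbp1*, *Bola2*, *Gm3244* and *Ppp1r11*, with Pearson correlations from 0.996 to 0.998. These are descriptions over 6 samples that share a genotype difference.

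Markers of other cells moved between the genotypes as well. By the adjusted p alone, 9 of 12 neutrophil markers were lower and 0 higher in *Ltbr*-/- cells, and their summed signal was 45711 to 46549 against 59767 to 64678. Of 7 tested mast cell markers, *Cma1* was called higher, and the summed signal of that list was 7803 to 8361 against 4336 to 4967. *Cma1* carried most of that difference, with 5262 to 5795 against 2032 to 2452. By the adjusted p alone *Cpa3* was also higher (0.56) and *Prss34* lower (−0.41), and 3 of the 7 had a log2 fold change above 0. The tryptase gene *Tpsb2* was at 1, the value of names that do not vary. Of 13 erythroid markers only the globin genes *Hba-a1* and *Hba-a2* were called higher, *Car2* was lower by the adjusted p alone (−0.26), and the summed signal was 12375 to 12614 against 12215 to 12232. Of 11 macrophage markers *Emr1* was called higher, and *Cd68* was higher and *Lyz2* lower by the adjusted p alone. The summed signal of this list was lower, at 6876 to 7504 against 7566 to 8021. *Lyz2* carried the lower sum, with 3339 to 3798 against 4490 to 5035. *Emr1* went the other way, with 1120 to 1397 against 658 to 736, and 4 of the 11 had a log2 fold change above 0. Of 2 tested B lineage markers *Cd79a* was called higher, with a summed signal of 625 to 656 against 462 to 521. For megakaryocytes, 0 of 6 tested markers were called by limma (1 higher and 1 lower by the adjusted p alone). The summed signal of this list was 14162 to 14899 against 12033 to 13377. *Itga2b* carried the higher sum, with 11349 to 12025 against 8856 to 9964. Only 1 of the 6 had a log2 fold change above 0, and the median of the list was −0.11. For stem cells, 0 of 12 markers were called and *Ly6a* was lower by the adjusted p alone, with 12508 to 13242 against 14094 to 14434. The part of other cells in the differences of the antioxidant enzyme genes was not tested.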

How the data were processed

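Libraries were made from 20 ng total RNA with a stranded mRNA kit and sequenced as single reads on a NextSeq 500. Reads were assembled in SeqMan NGen and quantified in ArrayStar by the authors. The submitters' processing notes name DESeq2 and GRCm38 (mm10). The deposited signal was taken, from the values, as 2 to the power of the authors' regularized log, which is scaled by sample and draws weak genes towards their mean. The files give no counts, so the read depth behind a value cannot be taken from them. The study states depth only as an average over the samples. The cells of 6 chimeras were pooled to 3 replicates, and each group has 3 samples. The limma p-values draw on the spread between these pools, moderated by the variances of all tested names, and do not measure that spread alone. For *Prdx5*, *Txn1* and *Sod1* the adjusted p without moderation, given above, was far larger.

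Of 26595 values per sample, the row with the highest mean was kept for each repeated name. The log2 signal of the upper 50% of names by mean (13108) was fitted in limma 3.58.1 (R 4.3.3; lmFit, then eBayes with its trend option). Genes were called where the Benjamini-Hochberg adjusted p was below 0.05 and the difference was at least 1.5-fold. The script was checked on simulated data. Members and lists were chosen with earlier results of these data known. Named genes are all 10 members and, from each list, up to 4 called genes or, where fewer than 2 were called, the 2 with the largest absolute log2 fold change, with *Ltbr*, *Ptprc* and the 5 names most like the members by Pearson correlation. The genes named beyond this rule (*Trmt112*, *Txnrd1*, *Txnip*, *Junb*, *Rnaseh2a*, *Nfe2l2*, *Keap1*, *Nqo1*, *Sqstm1*, *Me2*, *Mthfd2*, the FoxO genes and marker genes among them) were chosen after their values were seen. A gene that the rule would name is not reported here. Of 127 genes in the wider lists, 124 were found by current or older symbol. Transcripts came from GENCODE M21, taking the longest coding transcript among those of the principal isoform. Alternatives were other filters, a pseudocount of 1, other scalings, variance models and fold thresholds, a replicate block and leaving out each sample.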

Additional observations from a re-analysis of the deposited data

How the results depend on the processing

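Regularized log values understate differences of weak genes, and without counts no limit of detection can be given. Of the values for single genes under the alternatives, 436 kept their direction and call, 12 kept the direction and lost the call, 3 gained a call and 27 changed sign. *Gpx1* changed sign under 3 settings. Every other gene that changed sign did so under 1 setting only, the centring on the ribosomal protein genes described below. The count of antioxidant enzyme genes called was 1 in the main analysis, 0 after quantile normalization, 3 without the fold threshold and 0 with a fold of at least 2, and 1 to 2 when each sample was left out (2 without Ly5.1 replicate 3, by the addition of *Sod1*). The counts over all names were 1936 without the fold threshold and 42 with a fold of at least 2, and 342 to 407 with a sample left out. In the wider lists the count was 8, with 5 under a linear model without moderation, 30 without the fold threshold, 2 with a fold of at least 2 and 5 to 9 with a sample left out. The count of 5 came without Ly5.1 replicate 2, where *Gstp2* (0.55), *Taldo1* (0.55) and *Cyba* (0.57) fell below the fold threshold. *Gstp2* (0.53) did so without *Ltbr*-/- replicate 3. *Gpx1* ranged from −0.012 (without Ly5.1 replicate 2) to 0.079 with a sample left out, and turned to −0.24 after quantile normalization (limma, adjusted p = 0.00632). The cause of these changes was not tested, apart from the thresholds themselves.

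Centring on the ribosomal protein genes lowered all names by construction. It called 12037 names, 7 of the 10 antioxidant enzyme genes and 90 genes of the wider lists, all lower, and the median of the 10 genes was −0.70 in place of 0.18. The log2 fold changes were −0.65 for *Prdx1*, −0.75 for *Prdx2*, −0.71 for *Prdx3*, −0.23 for *Prdx5*, −0.70 for *Prdx6*, −0.35 for *Txn1*, −0.84 for *Gpx1*, −0.37 for *Sod1* and −0.79 for *Cat*. In the lists they were −0.58 for *Txndc17*, −0.62 for *Nxn*, −0.40 for *Hagh*, −0.43 for *Gpx4*, −0.18 for *Gstp1*, −0.28 for *Gstp2*, −0.61 for *Ccs*, −0.63 for *Sod2*, −0.18 for *Blvrb*, −0.040 for *Pgls*, −0.23 for *Taldo1*, −0.22 for *Cyba*, −0.53 for *Park7*, −0.62 for *Selm* and −0.70 for *Stk11*.

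With the replicate number as a block, 364 names, 1 antioxidant enzyme gene and 8 genes of the wider lists were called, as without it, and the adjusted p of *Prdx1* from limma was 0.0491 in place of 0.0892. The labels do not say whether samples of equal number came from the same chimeras, although each chimera held both genotypes. Their deviations from the group means correlated at 0.03, −0.01 and 0.09, and not every sample correlated best with its own number, so the number was not treated as a pairing.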

Other observations

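Genes of the wider lists outside the rule for named genes were also read, chosen after their values were seen. *Cybb*, the catalytic partner of *Cyba* in the phagocyte oxidase, had signals of 519, 562 and 519 in *Ltbr*-/- and of 650, 664 and 697 in Ly5.1 cells (log2 fold change −0.33, limma, adjusted p = 0.00961), opposite in sign to *Cyba* on the deposited scale. *Glrx*, glutaredoxin, was lower in *Ltbr*-/- cells by the adjusted p alone (log2 fold change −0.28, limma, adjusted p = 0.0335). *Gstk1*, a transferase of mitochondria and peroxisomes, was lower as well (log2 fold change −0.42, limma, adjusted p = 0.00363), while *Gsto1* was higher (log2 fold change 0.53, limma, adjusted p = 3.47e-06). *Nnt*, a mitochondrial source of NADPH that is partly deleted in some C57BL/6 substrains, had signals of 1663, 1645 and 1687 in *Ltbr*-/- and of 2067, 1755 and 1706 in Ly5.1 cells (limma, adjusted p = 0.294).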
